A study of Rattus norvegicus and Bos taurus with 6 samples.

Results

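Stromal progenitor nuclei of rat mesenteric perivascular adipose tissue (mesPVAT) were described from 1 single-nucleus RNA-seq library made on the 10x Genomics platform. The nuclei were selected on their own counts. For each nucleus, A was the number of UMIs (transcripts) of the 10 genes Pdgfra, Dcn, Fbn1, Col1a2, Bicc1, Scara5, Lama2, Ddr2, Pi16 and Itga11, and B was the number of UMIs of the 12 genes Plin1, Adipoq, Lipe, Msln, Wt1, Pkhd1l1, Ptprb, Pecam1, Mecom, Ptprc, Mrc1 and Cd163, which mark adipocytes, mesothelium, endothelium and immune cells. A nucleus was a member with A of at least 2 and A above B. This took 417 of 5887 nuclei, or 7.08% (exact binomial 95% interval, 6.44 to 7.77%). The other 5470 nuclei of the library served as the comparison.

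The series as used here holds 6 libraries of nuclei from white and brown fat of rat and from cow fat, 1 per tissue and platform. The library described here came from snap-frozen mesPVAT of male Dahl SS rats of strain SS/HsdMcwiCrl from Charles River, with no treatment and no disease in the labels. Fat was removed from the arcades of mesenteric resistance vessels, and nuclei were sorted for DAPI before loading. Age and the number of animals behind the library were not given in the sources used here. Each condition had 1 library, so no difference was tested, and the intervals given are 95% intervals that cover counting error only. The 4 rat Parse libraries used at the end carry another batch number, came from the same strain, sex and supplier and were labelled as mesPVAT, fat of the retroperitoneum (RP fat), PVAT of the thoracic aorta (taPVAT) and brown fat from under the scapula (BAT).

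Adipose stem and progenitor cells are fibroblast-like cells of the fat stroma. They lay down the collagens, microfibrils and proteoglycans around adipocytes and vessels, and part of them can become adipocytes. In rodent fat, Pdgfra marks the lineage as a whole. Cells expressing Pi16 and Dpp4 lie in the interstitial connective tissue and are held to be less committed, and cells expressing Icam1 and Pparg are held to be closer to adipocytes. Ebf2 encodes an early B-cell factor that acts in adipogenic precursors.

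The genes used for the choice are given first, as a description only. Fbn1, the gene of the microfibril protein fibrillin-1, gave 716 of the 1869 A UMIs of the members and was seen in 293 of the 417 nuclei. Pi16, a peptidase inhibitor of interstitial progenitors, gave 307 UMIs in 121 members. Pdgfra, the receptor that defines the lineage, was seen in 35 members, at 415 UMIs per 1000000 UMIs (CPM, from counts summed over nuclei). Ddr2 and Itga11, which encode collagen receptors, had UMIs in 88 and 66 members. Dcn, Scara5, Lama2, Col1a2 and Bicc1 had UMIs in 52, 58, 93, 108 and 100 members. The members held 60.0% of all A UMIs of the library. Most members were chosen by few transcripts, with a median A of 3. UMIs came from 1 gene of A in 71 members, from 2 genes in 213 and from 3 or more in 133.

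**Figure D1:**
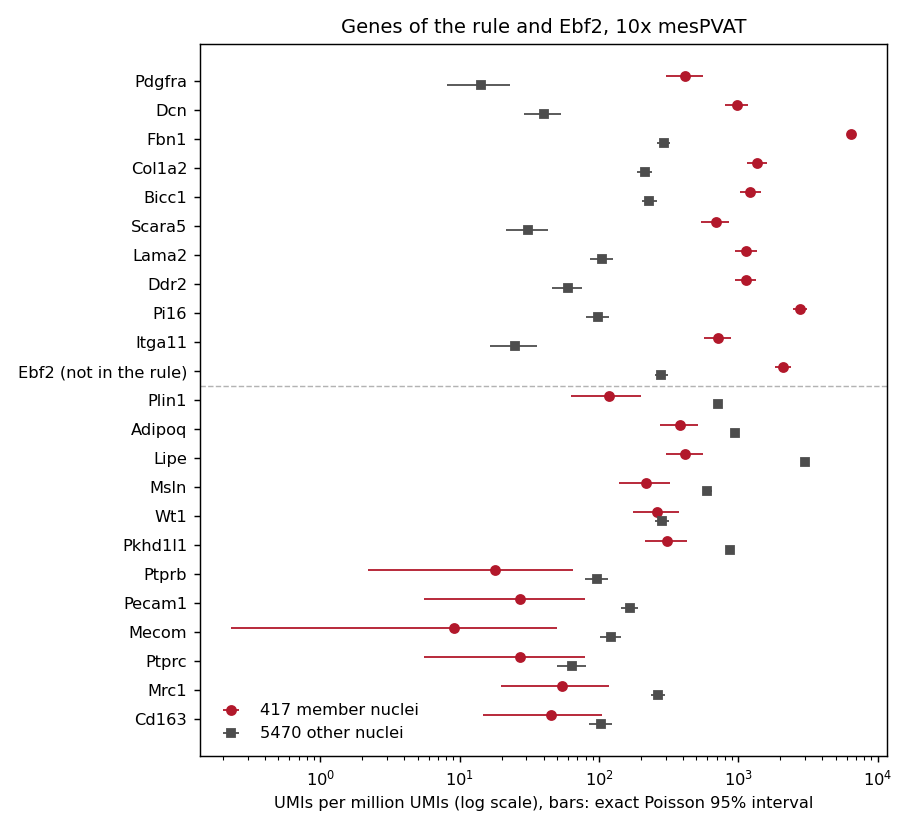
Level of the 22 genes of the rule and of Ebf2 in CPM (log axis) in the 417 member nuclei (circles) and the 5470 other nuclei (squares), with exact Poisson 95% intervals. The 10 genes above Ebf2 were used to take nuclei in and the 12 genes under the dashed line to keep nuclei out, so their separation follows from the choice; Ebf2 was not used.

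Of the members, 168 stood just inside the first threshold with A of 2, 157 had A of 3 or 4 and 92 had A of 5 or more. Just outside, 376 nuclei had A of 1 and B of 0. At the second threshold, 74 members had A above B by 1 UMI, and 42 nuclei with A of at least 2 stayed out with A equal to B. In all, 101 of the 518 nuclei with A of at least 2 were kept out by B. Among the members, B was 0 in 254 nuclei, 1 in 133 and 2 or more in 30. The mesothelial transcription factor gene Wt1, one of the genes of B, was at 262 CPM (175 to 376) in the members and 282 CPM (252 to 315) in the other nuclei, and these intervals overlapped. The other 11 genes of B had lower CPM in the members, with overlapping intervals for Ptprc and Cd163.

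Depth was low throughout. The library held 1237543 UMIs with a median of 161 UMIs per nucleus. Members had a median of 182 UMIs (order-statistic interval, 173 to 196) and 157 genes, against 159 UMIs (156 to 162) and 135 genes in the other nuclei. After each nucleus was thinned to 200 UMIs, both groups had a median of 176 genes (175 to 178 in 182 members, 176 to 177 in 1917 others). Thinning left out 235 members and 3553 other nuclei with fewer UMIs. Mitochondrial genes took 0.213% of UMIs in the members and 0.166% in the others.

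A single nucleus stood apart within the members. It held 5014 UMIs, the most of any nucleus in the library, of 2142 genes, where the next member held 2034. Its A was 180, against 35 in the next, with a B of 1. It gave 4.52% of the members' UMIs and 9.63% of their A UMIs, including 57 of the 307 Pi16 UMIs. Values without it are given beside several of the results it moved.

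Ebf2 was listed as a marker of these nuclei but was not used to choose them. It had 232 UMIs in the members and 316 in the others, which is 2094 CPM (1833 to 2381) against 280.5 CPM (250.4 to 313), a ratio of 7.46 (6.27 to 8.87). Among the other nuclei, a class was given where the UMIs of 3 genes of B from 1 cell type were at least 2 and above all other rule genes together, which gave 1238 adipocyte, 356 mesothelial, 92 immune and 51 endothelial nuclei and left 3733 without a class. Ebf2 was at 320.0 CPM in adipocyte, 99.7 CPM in mesothelial, 77.3 CPM in endothelial and 75.1 CPM in immune nuclei, and at 303 CPM in those without a class. Its relatives were near 1. Ebf1 had a ratio of 1.07 (0.951 to 1.19) and Ebf3 one of 0.819 (0.414 to 1.47). An Ebf2 UMI was found in 115 of 417 members (27.6%; median depth 182 UMIs) and in 2 of 92 immune nuclei (2.17%; median depth 212 UMIs), a cell type that should lack the gene. With each nucleus thinned to 100 UMIs, these shares were 16.0% (12.51 to 20.1%) of 387 members and 1.15% (0.0291 to 6.24%) of 87 immune nuclei.

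Genes outside the rule were compared where the library held at least 30 UMIs, which left 6733 genes. Of these, 589 (8.75%) were at least 2-fold higher in the members and 1180 (17.5%) at least 2-fold lower, and the median ratio over all of them was 0.924. These shares are the background for every count of genes below, and since the nuclei were selected on counts of the same nuclei they are a description. A gene with few UMIs in the other nuclei can reach the minimum only through the members, where it is then high. With the minimum set on the other nuclei alone, 475 of 6400 genes (7.42%) were at least 2-fold higher and 1159 (18.1%) at least 2-fold lower. The 20 genes with the largest ratios are described by what they encode. Secreted or matrix-modifying products were encoded by Plau, the urokinase that activates plasminogen, with 334 CPM in the members against 21.3 CPM in the others (ratio 15.7, 9.13 to 27.4). Lum and Dpt, a collagen-binding proteoglycan and a small matrix protein, had ratios of 11.7 (6.71 to 20.7) and 9.96 (6.58 to 15.1). Col6a3, a chain of the microfibrillar collagen VI, was at 550.4 CPM in the members against 57.7 CPM in the others (ratio 9.54, 6.62 to 13.7). Loxl1, an enzyme that cross-links elastin, had a ratio of 9.04 (4.99 to 16.3), and the secreted C1qtnf7 one of 12.9 (7.14 to 23.7).

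Among receptors and channels, Mrc2, which takes up collagen fragments into the cell, was at 253 CPM in the members against 16.9 CPM in the others (ratio 14.98, 8.08 to 28.4). Axl, a receptor kinase for Gas6, had a ratio of 8.32 (5.48 to 12.6), and Tmeff2, a membrane protein with follistatin domains, one of 11.2 (8.17 to 15.3). Tmeff2 was seen in 58 members. Piezo2, a cation channel opened by mechanical force, was at 208 CPM in the members against 20.4 CPM in the others (ratio 10.2, 5.45 to 19.0). The ratio of Piezo2 was 4.56 with B of 0. The other channel of the family, Piezo1, went the other way, with 126 CPM in the members against 862 CPM in the others (ratio 0.147, 0.0798 to 0.247). With A of at least 1 the ratio of Piezo1 was 0.284. Thbd encodes thrombomodulin, a cofactor of anticoagulation. Its ratio was 9.60 (5.83 to 15.8), but 21 of its 34 member UMIs came from the largest nucleus, and without that nucleus it was 3.85 (1.87 to 7.43).

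Enzymes and signalling genes made up most of the rest. Gfpt2, which controls entry into the hexosamine pathway, was at 668 CPM in the members against 50.6 CPM in the others (ratio 13.2, 9.22 to 19.0), and Uap1, which makes UDP-N-acetylglucosamine later in the same pathway, at 731 CPM in the members against 84.3 CPM in the others (ratio 8.67, 6.36 to 11.8). Apcdd1l, related to the Wnt inhibitor Apcdd1, had the largest ratio, 34.3 (15.2 to 87.4), from 27 UMIs in the members and 8 in the others, and 25.3 (10.6 to 66.8) without the largest nucleus. The ratio of Apcdd1l was 8.66 when members had to have B of 0, and the ratio of Plau was then the larger at 16.1. Among nuclei with at least 200 UMIs, Plau also had the larger ratio, 40.8 against 35.7. Adcy2, an adenylyl cyclase, Coro2b, an actin-binding protein, and Numbl, a relative of the Notch regulator Numb, had ratios of 8.04, 12.2 and 9.24. With B of 0 the ratio of Adcy2 was 4.47, the ratio of Numbl 4.33 and the ratio of Gfpt2 8.20, and for 8 of the 20 higher genes the ratio fell by over 1.5 times. Cadm3, a cell adhesion molecule, Efhd1, a calcium-binding protein, and Plac9 had ratios of 10.2, 8.90 and 10.2. That these genes were highest in the members follows from the choice, and in the 51 endothelial nuclei 3 counts already stand for 232 CPM. All 20 were at least 2-fold higher without the largest nucleus, but 11 of them had under 30 UMIs in the other nuclei and reached the minimum only through the members.

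**Figure D2:**
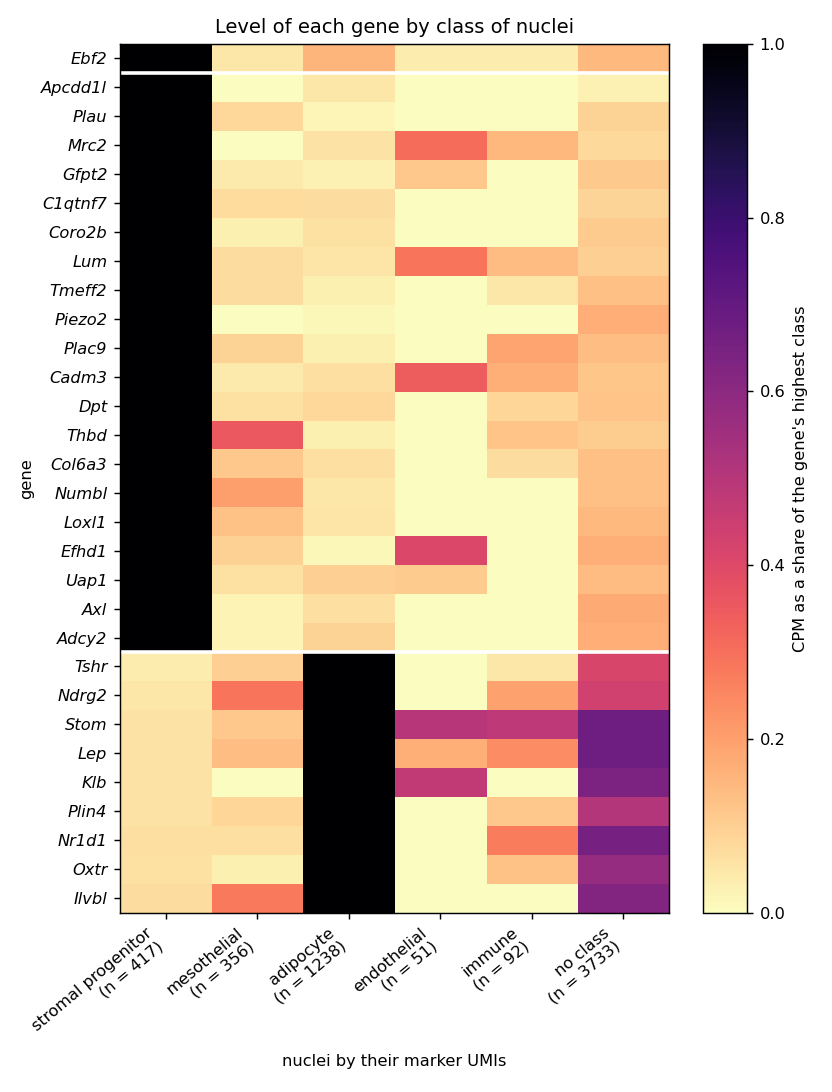
CPM of Ebf2 (top), the 20 genes with the largest ratios (middle) and 9 of the 10 genes with the smallest ratios (bottom) in each class of nuclei of the 10x mesPVAT library, as a share of the highest class for that gene; n is the number of nuclei. Ebf2 and the 20 genes are highest in the stromal progenitor nuclei and the 9 genes in the adipocyte nuclei; the 20 and the 9 genes were picked by these ratios; the endothelial and immune columns rest on 51 and 92 nuclei, too few to rank those classes.

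Promoters of these genes were looked up in the RefSeq promoter table (build GRCr8), which held 17 of the 20. The letters of the early B-cell factor (EBF) site, TCCC and GGGA with any 2 bases between, were searched because Ebf2 was among the markers, with those of AP-1 (TGANTCA) and TEAD (GGAATG) sites, on both strands and over 300 bases around the start. Cadm3 was the gene of the 17 with a match to all 3, and Loxl1 held the TEAD letters. In all 33469 promoters of that length, 0.834% held the EBF letters, 7.33% the AP-1 letters and 14.2% the TEAD letters. A match describes letters and is not a binding site. Cadm3 is therefore the promoter shown. The 250 bases before its start lie on the minus strand at chr13:88349719-88349968 and are shown 5′ to 3′ with, in capitals and in this order, the AP-1, EBF and TEAD matches.
Cadm3: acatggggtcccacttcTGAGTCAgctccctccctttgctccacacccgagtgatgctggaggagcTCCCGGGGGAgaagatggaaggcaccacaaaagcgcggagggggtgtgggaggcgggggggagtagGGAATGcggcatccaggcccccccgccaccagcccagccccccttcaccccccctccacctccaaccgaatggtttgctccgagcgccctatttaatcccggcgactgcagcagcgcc

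The 10 genes with the smallest ratios all had their highest CPM in the adipocyte nuclei. The rule kept those nuclei out, so these lower ratios follow in part from the choice. Lep, the gene of the adipocyte hormone leptin, had 3 UMIs in the members and 373 in the others (ratio 0.0818, 0.0168 to 0.241), and Plin4, of a lipid droplet coat protein, 2 UMIs in the members and 223 in the others (ratio 0.0912, 0.011 to 0.333). Hormone receptors were among them. Tshr, the thyrotropin receptor, had 3 UMIs in the members and 461 in the others (ratio 0.0662, 0.0136 to 0.195), and Oxtr, the oxytocin receptor, 2 UMIs in the members and 211 in the others (ratio 0.0964, 0.0116 to 0.352). Klb, a coreceptor of Fgf21, Nr1d1, a clock repressor, and Ndrg2, Stom and Ilvbl each had 1 UMI in the members and between 100 and 125 in the other nuclei.

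Fibrillar collagen genes were mostly higher in the members. Of the 8 fibrillar and associated collagen genes outside the rule with at least 30 UMIs, 7 were at least 2-fold higher and 0 at least 2-fold lower, with a median ratio of 2.99 beside 0.924 for all genes. Col1a1, which with the rule gene Col1a2 makes collagen I, was at 1913 CPM in the members against 325 CPM in the others (ratio 5.89, 4.95 to 6.99). Col14a1, a collagen on the surface of fibrils, was at 1029 CPM in the members against 163 CPM in the others (ratio 6.30, 4.94 to 8.0). The largest nucleus held 35 of its 114 member UMIs, and without it the ratio was 4.57 (3.47 to 5.98). The ratio of Col14a1 was 3.95 with B of 0. Col6a1 lost its call with A of at least 3 and with B of 0. Col3a1, Col5a1, Col6a1 and Col6a2 had ratios of 2.83, 2.57, 2.24 and 3.16, and Col5a2, at 1.65 (1.31 to 2.05), did not reach the limit. Mesothelial nuclei also carried Col3a1, at 1214 CPM.

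Of genes of elastic fibres and microfibrils, 9 reached the minimum and were at least 2-fold higher, Ltbp4 and Loxl1 of them only through their member UMIs, and Fbn2, Ltbp2, Emilin1 and Lox had 0 UMIs in the members. With the minimum on the other nuclei, 7 of 7 were higher. With B of 0, 7 of the 9 were, as the ratio of Eln was then 1.48 and the ratio of Fbln1 1.30. The ratio of Eln was also under the limit with A of at least 1 (1.95), without the 5% of nuclei with the most UMIs (1.84) and as a mean over nuclei (1.60). Fbln2, a fibulin that binds fibrillin, was at 433 CPM in the members against 54.1 CPM in the others (ratio 8.0, 5.36 to 11.9), Mfap5, a microfibril protein, had a ratio of 7.86 (4.87 to 12.6), and Fbln5 one of 6.35 (3.44 to 11.5). Adamtsl1, a matrix protein of the ADAMTS-like family, and the latent TGF-beta binding proteins Ltbp1 and Ltbp4 had ratios of 4.93 (3.62 to 6.67), 3.23 (2.46 to 4.21) and 5.51 (2.58 to 11.3). Eln, the elastin gene, was nearer the limit at 2.06 (1.60 to 2.63), with 2086 CPM in the 51 endothelial and 952 CPM in the mesothelial nuclei against 713 CPM in the members. Summed over the list, its genes took 3546 CPM (3204 to 3915) of the members and 921 CPM (866 to 979) of the others. Of 4 small proteoglycan genes compared, Lum, Vcan (6.50, 3.67 to 11.3) and Ogn (3.94, 1.84 to 7.88) were higher and Prelp had 0 UMIs in the members. Lum reached the minimum only through the members. Ogn lost its call without the 5% of nuclei with the most UMIs.

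Basement membrane genes were split. Lamc1, the laminin gamma 1 chain, was at 3312 CPM in the members against 839.6 CPM in the others (ratio 3.94, 3.49 to 4.45), while both main chains of collagen IV were lower. Col4a1 was at 361 CPM in the members against 731 CPM in the others (ratio 0.494, 0.35 to 0.678) and Col4a2 at 180.5 CPM in the members against 367 CPM in the others (ratio 0.491, 0.297 to 0.769), with 1026 CPM of Col4a1 in adipocyte nuclei. The integrin genes Itga1 and Itga8 had ratios of 0.167 (0.0341 to 0.495) and 0.154 (0.00384 to 0.889), from 3 and 1 UMIs in the members. With A of at least 3 the ratio of Itga8 was 0.627, and Itga8 lost its call. In all, 3 of the 13 genes of this list were at least 2-fold higher and 4 at least 2-fold lower. Calls near the limit turned on the largest nucleus, and on the rule and the nuclei used. Without that nucleus Lamb1 went from 2.01 to 1.79, Col4a1 to 0.517 and Col4a2 to 0.514. The lower calls of Col4a1 and Col4a2 were lost under 6 and 7 alternatives. Of the myofibroblast genes, Postn (7.39, 4.54 to 11.9) and Fn1 (4.10, 2.85 to 5.83), which encode periostin and fibronectin, were higher. Of the 4 compared, 3 were at least 2-fold higher, the third being Thbs2 at 2.03 (0.692 to 4.97), or 1.77 without the largest nucleus, and Itga8 was lower, while Tnc and Acta2 had 0 UMIs in the members. Acta2, the smooth muscle actin that defines contractile myofibroblasts, had 0 UMIs in the members, which allows up to 27.1 CPM, and 12 in the other nuclei.

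**Figure D3:**
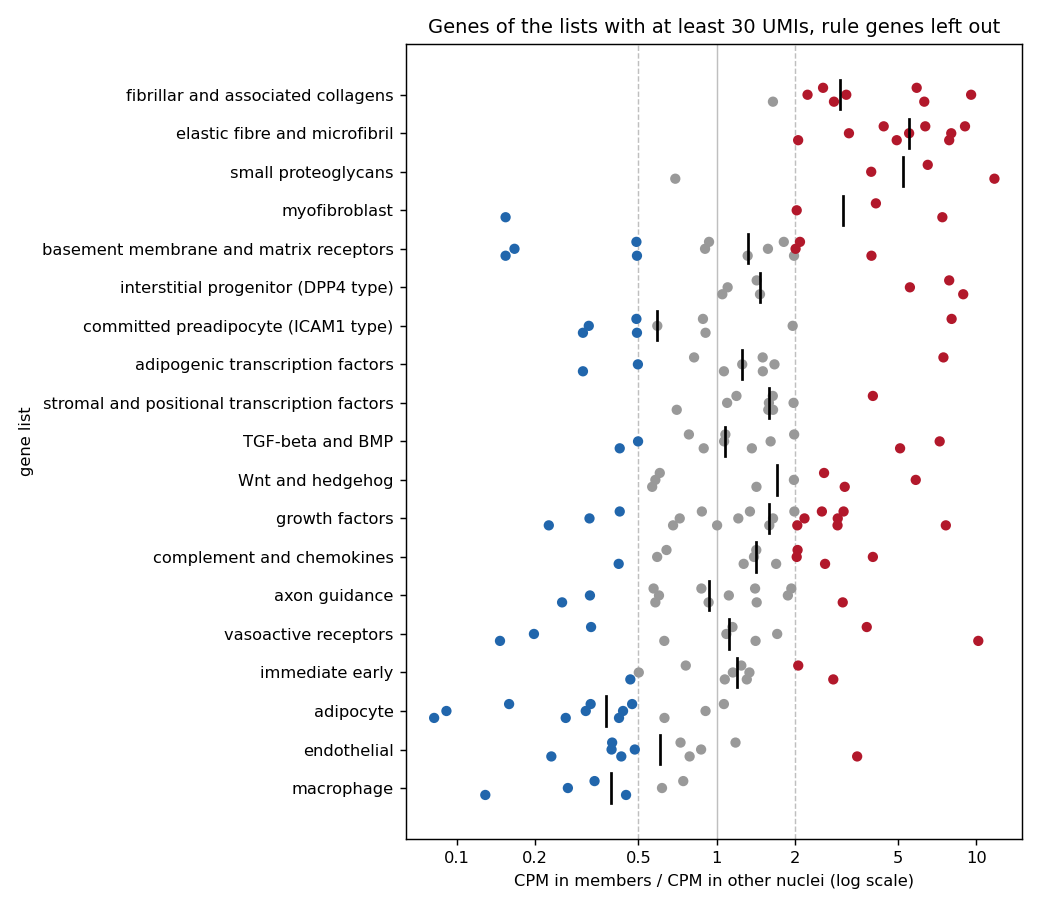
Ratio of CPM in the 417 member nuclei to CPM in the 5470 other nuclei (log axis) for each gene of 19 lists with at least 30 UMIs in the library, rule genes left out; red points are at least 2-fold higher, blue points at least 2-fold lower, and black bars are list medians. Collagen, elastic fibre and proteoglycan genes lie mostly above 2, and adipocyte and macrophage genes mostly under 1. The lower adipocyte and macrophage ratios follow in part from the choice.

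Genes that separate kinds of fat progenitors in rodents stood on both sides of 1. Of 7 genes of the interstitial, Dpp4-expressing kind that could be compared, 3 were at least 2-fold higher. They were Mfap5, Efhd1 and Cd55, a complement regulator on the cell surface (5.55, 3.23 to 9.32). Dpp4 itself had 9 UMIs in the members and 83 in the others (ratio 1.10, 0.487 to 2.20), of which the largest nucleus gave 5. Without it the ratio of Dpp4 was 0.513 (0.137 to 1.36), and it was at 308 CPM in mesothelial nuclei. Sema3c, another gene of that kind, had a ratio of 1.43 (1.14 to 1.77) and was at 2003 CPM in mesothelial nuclei against 839 CPM in the members. Of 9 genes of the committed, Icam1-expressing kind, Sparcl1, a matricellular protein, was higher (8.03, 3.80 to 16.7), though it and Efhd1 reached the minimum only through the members, and Pparg, Fabp4, Col4a1 and Col4a2 were lower. Pparg, Fabp4, Col4a1 and Col4a2 all had their highest CPM in the adipocyte nuclei, with Fabp4 at 3273 CPM there and 740 CPM in the members. The rule kept those nuclei out, so these lower ratios follow in part from the choice. With B of 0 the ratio of Sparcl1 was 4.64. Icam1 had a ratio of 1.96 (0.928 to 3.78), and 2.06 without the largest nucleus. In the list of the regulatory, CD142-expressing kind, F3, the gene of CD142, had a ratio of 1.68 (1.45 to 1.93) and was at 1739 CPM in adipocyte nuclei, and Mgp, an inhibitor of calcification, had a ratio of 5.97 (3.57 to 9.80).

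Of 9 adipogenic transcription factors compared, 1, Ebf2, was at least 2-fold higher and 2 were at least 2-fold lower. Pparg, the master regulator of adipocyte differentiation, was at 72.2 CPM in the members against 236 CPM in the others (ratio 0.306, 0.131 to 0.611). It was highest in adipocyte nuclei, at 369 CPM, which the rule kept out, so its lower ratio follows in part from the choice. Zfp423, a zinc finger protein of preadipocytes, had a ratio of 0.498 (0.305 to 0.771) and was at 490.2 CPM in adipocyte nuclei. Its call was lost with A of at least 1 and under the study's filters, among others. Cebpb and Klf4 had ratios of 1.25 (0.977 to 1.59) and 1.504 (0.946 to 2.30). Zeb1, a repressor of epithelial genes, was at 893 CPM in the members against 224 CPM in the others (ratio 3.99, 3.13 to 5.06), and its relative Zeb2 had a ratio of 0.702 (0.566 to 0.862) with 4506 CPM in immune and 1744 CPM in adipocyte nuclei. The homeobox gene Meis1 came close to the limit at 1.98 (1.53 to 2.53), and was highest in mesothelial nuclei at 934 CPM. Zeb1 was the 1 of 9 stromal and positional factors at least 2-fold higher.

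Signalling genes differed one by one. Gli3 and Gli2, transcription factors of the hedgehog pathway, had ratios of 5.84 (3.50 to 9.57) and 2.59 (1.87 to 3.53), and their target Ptch1, the hedgehog receptor, one of 1.98 (0.803 to 4.29), which was 2.08 without the largest nucleus. Wnt5a, a ligand of noncanonical Wnt signalling, was at 271 CPM in the members against 87.0 CPM in the others (ratio 3.11, 2.00 to 4.73). These made up the 3 of 8 Wnt and hedgehog genes at least 2-fold higher, and 0 were lower. In the TGF-beta and BMP list, the BMP modulator Bmper (7.22, 4.90 to 10.6) and the activin antagonist Fst (5.08, 2.32 to 10.6) were higher, Bmp4 (0.498, 0.158 to 1.20) and the BMP antagonist Chrdl1 (0.424, 0.191 to 0.819) were lower, and 7 others lay between. Bmp4 had 5 UMIs in the members and lost its call under 8 alternatives, at 0.522 without the largest nucleus, and Fst reached the minimum only through the members. Of 19 growth factor genes, 7 were at least 2-fold higher and 3 lower. Igfbp3 and Igfbp4, which bind insulin-like growth factors, had ratios of 7.63 (3.63 to 15.7) and 2.92 (1.83 to 4.52), and the receptor Igf1r one of 2.93 (2.16 to 3.91), whereas Igf1 itself was at 0.68 (0.493 to 0.917). Igfbp3 reached the minimum only through the members, and the ratio of Igfbp3 was 2.79 with B of 0. With the minimum on the other nuclei, 6 of 18 genes of the list were higher. Angpt1, the ligand of Tek, had a ratio of 0.324 (0.138 to 0.648) and was at 378 CPM in adipocyte nuclei. Slit2, a guidance ligand, had a ratio of 3.06 (2.09 to 4.38), and 2.16 (1.37 to 3.29) without the largest nucleus, and lost its call with B of 0 and under the study's filters, among others. Slit3 had a ratio of 1.94 (1.73 to 2.16), and 1.47 (1.30 to 1.67) without that nucleus, which held 104 of its 380 member UMIs.

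Of 10 vasoactive receptor genes compared, 2 were at least 2-fold higher and 3 lower, or 1 and 3 of 9 with the minimum on the other nuclei, as Piezo2 reached it only through the members. Piezo2 was the first of the higher genes and Agtr1a, the angiotensin II type 1a receptor, the second, at 144 CPM in the members against 38.2 CPM in the others (ratio 3.78, 1.99 to 6.85). The largest nucleus held 7 of its 16 member UMIs, and without it the ratio was 2.23 (0.955 to 4.64), an interval that includes 1. Its call was lost under the study's filters, without the 5% of nuclei with the most UMIs and as a mean over nuclei. Agt, the angiotensinogen gene, was lower at 0.329 (0.186 to 0.539), with 701 CPM in adipocyte nuclei, as was Npr3, the natriuretic peptide clearance receptor, at 0.198 (0.0404 to 0.59). The call of Agt was lost as a mean over nuclei. In the complement and chemokine list, 4 of 11 genes were higher, led by Serping1 (3.99, 1.79 to 8.28) and C1s (2.61, 1.47 to 4.44), and 1 was lower. Serping1 and Cxcl12 reached the minimum only through the members, and with the minimum on the other nuclei 2 of 9 were higher. C1s lost its call with B of 0, under the study's filters, without the 5% of nuclei with the most UMIs and as a mean over nuclei. Of 10 immediate early genes, which rise within minutes of stress or tissue handling, 2 were at least 2-fold higher and 1 lower. Nr4a1 (2.81, 2.16 to 3.63) and Ier2 (2.06, 1.70 to 2.49), whose call was lost without Fbn1 in the rule, were the higher ones and Hspa1b (0.465, 0.245 to 0.809) the lower one, while Fosb had a ratio of 0.502 (0.386 to 0.641) and Fos (1.08, 0.736 to 1.53) and Egr1 (1.15, 1.01 to 1.32) were near 1. Hspa1b lost its call with A of at least 1, under the study's filters and without the 5% of nuclei with the most UMIs. It also lost the call as a mean over nuclei and against other nuclei with B of at least 2. Of 8 steroid response genes, 0 were at least 2-fold higher, and Esr1, the oestrogen receptor alpha, was lower (0.424, 0.24 to 0.697), a call lost with A of at least 1, with B of 0, without the 5% of nuclei with the most UMIs and as a mean over nuclei. Of the PDGF list, Pdgfc was lower (0.38, 0.102 to 1.00) from few UMIs and lost its call under 5 alternatives, and Pdgfd was the other gene compared (0.837, 0.327 to 1.80).

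Markers of other cells were measured in the members. B counts genes of adipocytes, mesothelium, endothelium and immune cells. Lower levels of other genes of these cells in the members follow in part from the choice. Adipocyte genes outside the rule summed to 3790.0 CPM (3436 to 4170.4) in the members, 14982 CPM in adipocyte nuclei and 2248 CPM in mesothelial nuclei. Of the 12 compared, 9 were at least 2-fold lower in the members and 0 higher, with 5 to 10 lower across the alternatives. The most abundant in the library, the lipase gene Pnpla2, had a ratio of 0.159 (0.114 to 0.216), and Lpl, a lipase that progenitors also make, one of 0.906 (0.751 to 1.09). Endothelial genes summed to 568 CPM in the members and 5640.1 CPM in endothelial nuclei and were lower for 5 of 10, or 1 to 5 across the alternatives and 4 without the largest nucleus, Shank3 being the most abundant over the whole library, and Flt1, Tie1, Cyyr1 and Adgrl4 had 0 UMIs in the members. Tek, an angiopoietin receptor of endothelium, was the exception at 244 CPM in the members against 70.1 CPM in the others (ratio 3.47, 2.16 to 5.44), in 24 members, with 232 CPM in the 51 endothelial nuclei. Abcc9, a potassium channel subunit used as a pericyte marker, was at 262 CPM in the members against 36.4 CPM in the others (ratio 7.19, 4.31 to 11.9) in 23 members, while the pericyte and muscle genes Kcnj8, Acta2, Myh11 and Cspg4 had 0 UMIs there and Rgs5 had 1. Pdgfrb, a PDGF receptor on pericytes and fibroblasts, had 7 UMIs in the members and 22 in the others. The genes of this list summed to 388 CPM (281 to 523) in the members and 195 CPM (170.3 to 223) in the others, and the part of pericytes in the values of the members was not tested. Macrophage genes summed to 180.5 CPM in the members and 5557 CPM in immune nuclei, C1qa being the most abundant over the whole library. They were lower for 4 of 6 and higher for 0, with 1 to 4 lower across the alternatives, and Csf1r, Cd68, Lyz2 and C1qb had 0 UMIs in the members. Of 3 mesothelial genes compared, Upk1b was higher (2.10), from 6 UMIs in the members and 29 in the others. Upk1b reached the minimum only through the members. Mesothelial genes summed to 153 CPM in the members and 157 CPM in the others, with Upk3b and Lrrn4 at 0 in the members. Lymphatic endothelial genes summed to 370.0 CPM and 375 CPM, and lymphocyte genes to 63.2 CPM and 61.2 CPM. In the Schwann cell list, Mbp was lower (0.167, 0.0452 to 0.434), with 303 CPM in adipocyte and 263 CPM in immune nuclei. Sox10 was at 0 in the members and in each named class, and at 1.59 CPM in the nuclei without a class. Pancreatic acinar genes, relevant to a mesenteric dissection, summed to 9.02 CPM, and erythroid genes to 81.2 CPM. The 5 proliferation genes Mki67, Top2a, Cenpf, Aspm and Anln had 0 UMIs in the members and 26 in the other nuclei. The part of RNA from other cells in these values was not tested.

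Ebf2 and matrix genes, which the rule did not use, were highest in the nuclei with the most A UMIs. Ebf2 was at 248 CPM (216 to 284) in the 4378 nuclei with A of 0 and at 859 CPM (635 to 1135) in the 376 nuclei just outside, with A of 1 and B of 0. In members it was at 1233 CPM (859 to 1715) with A of 2, 1758 CPM (1348 to 2254) with A of 3 or 4 and 2861 CPM (2399 to 3387) with A of 5 or more. The interval of the nuclei just outside overlapped that of the members just inside, and lay above that of the nuclei with A of 0. Collagen genes outside the rule, summed, went from 2315 CPM (2214 to 2419.6) at A of 0 and 4837 CPM (4283 to 5442) just outside to 6872 CPM (5941 to 7907) just inside, 6579.5 CPM (5760.0 to 7483) at A of 3 or 4 and 10491 CPM (9587 to 11458) at A of 5 or more, and the intervals of the members just inside and with A of 3 or 4 overlapped. Without the largest nucleus, members with A of 5 or more had 2632 CPM of Ebf2, 9984 CPM of the collagens and 1067 CPM (778 to 1428) of Col14a1, for which the value with it was 1696 CPM (1344 to 2110.3). Adipocyte genes ran in the opposite order, from 10321 CPM (10106 to 10539) at A of 0 to 3200.4 CPM (2710.3 to 3753) at A of 5 or more. This order follows in part from the choice, as nuclei with A of 0 were taken at any B, which holds Plin1, Adipoq and Lipe. Adipocyte genes were at 4652 CPM (3892 to 5516) in members with A of 2. They were at 4634 CPM (4097 to 5220) in the 101 nuclei with A of at least 2 that B kept out. At the second threshold, Ebf2 was at 470.0 CPM (215 to 892) in the 74 members with A above B by 1 and at 352 CPM (114 to 822) in the 42 nuclei with A equal to B. The deeper nuclei had more A UMIs, with a median depth of 150.5 UMIs in members with A of 2 and 336.5 UMIs in those with A of 5 or more.

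**Figure D4:**
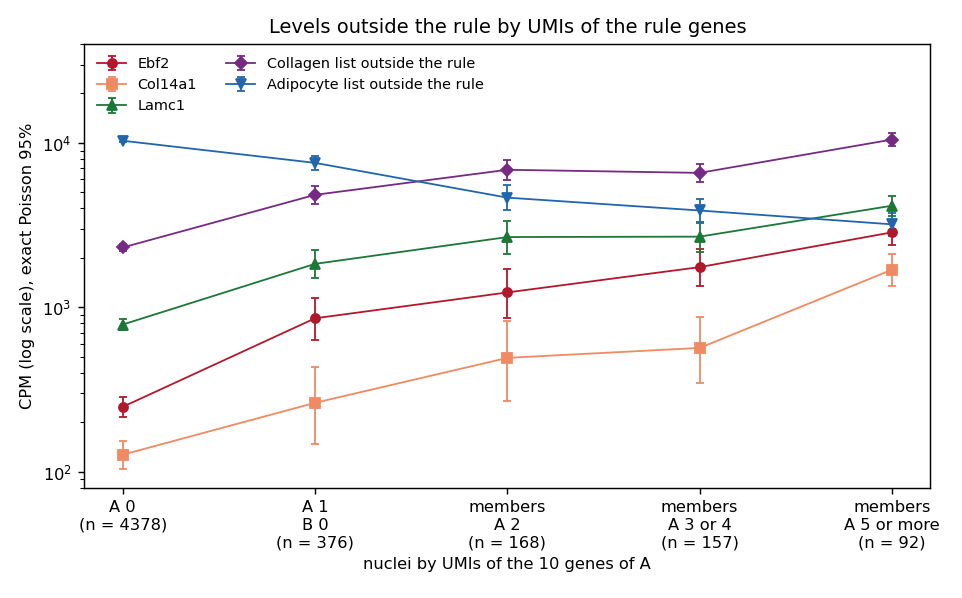
CPM (log axis, exact Poisson 95% intervals) of Ebf2, Col14a1, Lamc1, the summed collagen list and the summed adipocyte list, rule genes left out, in nuclei ordered by their UMIs of the 10 genes of A; n is the number of nuclei, and nuclei with A of 1 and B above 0 or with A not above B are not shown. Ebf2 and the matrix genes are higher and adipocyte genes lower at A of 5 or more than at A of 0. Nuclei with A of 0 were taken at any B, so the fall of adipocyte genes follows in part from the choice.

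Members with and without Pi16 were set side by side. Pi16 is part of the rule, and a member without it had to qualify through the other genes of A, so those genes are left out here. A Pi16 UMI was found in 121 members (median depth 180 UMIs) and in none of the other 296 (median depth 182 UMIs), and the largest nucleus is one of the first. Col14a1 was at 1912 CPM with and 535 CPM without (ratio 3.58, 2.39 to 5.43) and Fbln2 at 780.0 CPM with and 239 CPM without (ratio 3.26, 1.75 to 6.28). These genes were higher where Pi16 was seen. For Col5a1, at 830.3 CPM with and 1224 CPM without (ratio 0.678, 0.44 to 1.02), the interval of the ratio included 1. Ebf2 was at 2743 CPM with and 1731 CPM without (ratio 1.58, 1.21 to 2.07). Without the largest nucleus, Col14a1 was at 1181 CPM with and 535 CPM without Pi16, Fbln2 at 749 and 239 CPM and Ebf2 at 2447 and 1731 CPM.

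Nuclei with at least 100 UMIs were also clustered with the 22 rule genes left out. Of 387 members, 264 (68.2%, 63.3 to 72.8%) fell into 1 of 10 clusters, which held 10.1% of the nuclei. Its leading genes were Plau, Coro2b, Efhd1, Pde10a, Gfpt2, Tnfaip6, Lsp1, Tmeff2, Loxl1 and Axl. The share of members in it was 77 of 149 with A of 2, 106 of 148 with A of 3 or 4 and 81 of 90 with A of 5 or more. A further 254 nuclei of this cluster were not members, of which 120 had A of 0 and 122 had A of 1, at a median depth of 144 UMIs against 195 UMIs in its members. Outside it, 123 members were spread over the other 9 clusters. The largest number, 48, was in the cluster with most mesothelial nuclei, led by Fras1, Htr4 and Gcnt2, and 29 were in a cluster led by ribosomal protein genes.

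The same rule was applied to the rat Parse libraries, made from other nuclei preparations with another kit and another annotation, so the values stand side by side and platform, animal and batch cannot be told apart. The 10x library shared 0 barcodes with each of them, which the different barcode formats of the kits already fix. In the Parse library labelled mesPVAT the rule took 376 of 3028 nuclei (12.4%, 11.3 to 13.6%), in the RP fat library 214 of 2805 (7.63%), in the taPVAT library 339 of 2708 (12.52%) and in the BAT library 163 of 2699 (6.04%). Median depth of the nuclei taken was 445, 427, 1043 and 1225 UMIs, in this order. As the rule counts UMIs, a share can follow depth, and the lower share of the mesPVAT library after thinning is given under the processing. Of the 20 genes picked in the 10x library, 16 could be compared in the library labelled mesPVAT. There, 16 of 16 had ratios above 1 and 6 were at least 2-fold higher, where 5.68% of all genes compared were, and their median ratio was 1.84 beside 1.06 for all genes. As the median of all genes was itself above 1, a ratio above 1 was common there. The intervals of Apcdd1l, C1qtnf7, Dpt, Numbl, Efhd1 and Uap1 included 1. Gfpt2 (3.55, 2.38 to 5.27), Axl (3.22, 2.15 to 4.80), Loxl1 (2.42, 1.15 to 4.85), Col6a3 (2.30, 1.79 to 2.94), Cadm3 (2.09, 1.18 to 3.59) and Piezo2 (2.08, 1.59 to 2.70) were the 6. Loxl1 reached the minimum only through the members there, and with the minimum on the other nuclei 5 of 15 were at least 2-fold higher, beside 3.75% of all genes. Apcdd1l, first in the 10x library, had a ratio of 1.09 (0.59 to 1.88).

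Ebf2 had a ratio of 1.46 (1.12 to 1.87) in the Parse library labelled mesPVAT, 0.977 in the RP fat library, 1.17 in the taPVAT library and 0.903 in the BAT library, against 7.46 in the 10x library. Of the 10 lower genes, 8 could be compared in the library labelled mesPVAT and 4 were at least 2-fold lower, beside 6.72% of all genes. Plin4 (0.165, 0.117 to 0.227) and Lep (0.321, 0.136 to 0.653) were among the 4, and Klb was at 1.41 (0.593 to 3.03). Of 11 higher genes compared in RP fat as labelled, 2, Gfpt2 and Axl, were at least 2-fold higher, beside 2.78% of all genes. With the minimum on the other nuclei of RP fat it was 2 of 10, beside 1.43%, as Efhd1 reached it only through the members. Among the higher genes compared, the median ratio was larger in the deeper brown depots, at 8.62 in taPVAT and 10.0 in BAT. This median was 1.84 for Parse mesPVAT and 1.41 for RP fat. For Piezo2 the ratio in BAT was 1.61 (0.63 to 3.45), from 7 UMIs in the nuclei taken, against 2.08 (1.59 to 2.70) for Parse mesPVAT. These intervals overlapped. The ratio of Ebf2, which is not one of the higher genes compared, was smaller in both brown depots than in Parse mesPVAT. Its level was not. In the nuclei taken, Ebf2 was at 1337 CPM in taPVAT, 1073 CPM in BAT and 294 CPM in Parse mesPVAT. In the other nuclei it was at 1146, 1188 and 202 CPM, in this order. All 18 genes compared in taPVAT were at least 2-fold higher, beside 16.1% of all genes, and 15 of 17 in BAT, beside 18.7%. With the minimum on the other nuclei these were 16 of 16 in taPVAT, beside 13.6%, and 13 of 15 in BAT, beside 17.6%, as Plac9 and Thbd in taPVAT and Plac9 and Loxl1 in BAT reached it only through the members. Gfpt2 had ratios of 24.6 in taPVAT and 20.52 in BAT, Mrc2 of 13.02 and 13.4, and Piezo2 of 11.4 and 1.61.

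**Figure D5:**
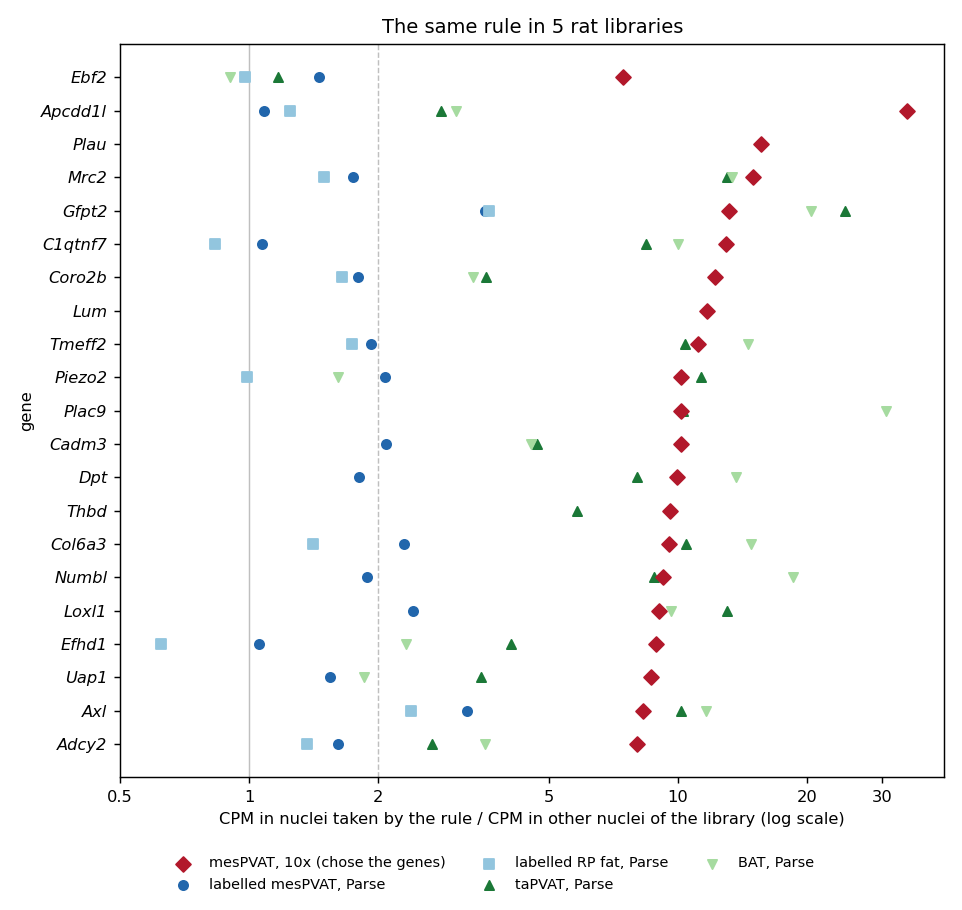
Ratio of CPM in the nuclei taken by the rule to CPM in the other nuclei of the same library (log axis) for Ebf2 and the 20 genes picked in the 10x mesPVAT library, in that library (diamonds) and in 4 rat Parse libraries; genes with fewer than 30 UMIs in a library are not shown for it. The 10x values chose the 20 genes; ratios in the 2 white fat Parse libraries lie between 0.625 and 3.62, and those in taPVAT and BAT reach 30.6, the value of Plac9 in BAT, which reached the minimum there only through the members.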

How the data were processed

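Nuclei of rat mesPVAT were profiled in 1 library with the 10x 3′ kit, and nuclei of 4 rat fat depots in Parse libraries. The authors deposited whole-number UMI counts per gene and nucleus. The 10x counts were made with Cell Ranger 7.1.0 (submitters' processing notes), with Rnor_6.0 named as the genome, and the Parse counts with split-pipe on GRCr8. The deposited 10x matrix held 25629 features and 5887 nuclei, whose depth is given in the report. Counts of features sharing a symbol were summed, giving 25409 symbols. Counts were not filtered by nucleus. No doublet caller was run, and doublets cannot be told apart from nuclei carrying RNA of other cells.

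The members and gene lists were chosen with earlier results of these data known. CPM were UMIs summed over the nuclei of a group per 1000000 UMIs, and ratios were computed for genes with at least 30 UMIs in the library, with a gene called at 2-fold. With 1 library per condition no test was possible. Intervals are 95% intervals, exact Poisson for CPM, exact binomial for shares, exact conditional for ratios and from order statistics for medians, and cover counting error only. A count of 0 was given an upper limit of 3 counts. Genes named were the rule genes, Ebf2, the 20 largest ratios among genes with a symbol and at least 20 UMIs in the members, the 10 smallest among those with at least 100 UMIs in the other nuclei, and genes of the lists. Levels were not compared between genes, apart from naming the most abundant gene of a marker list. Nuclei were clustered with scanpy 1.11.5 (2000 variable genes, 30 components, 15 neighbours, Leiden resolution 1). Sums and intervals were computed with Python 3.11.15, numpy 2.4.6, scipy 1.17.1 and pandas 2.3.3. Ratios and 2-fold calls were tested on simulated data, and intervals were not. Alternatives changed the rule, the nuclei used, the gene minimum and the fold. A few genes of the lists and of the lower genes are not reported here.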

Additional observations from a re-analysis of the deposited data

How the results depend on the processing

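The share of member nuclei was 4.23% with A of at least 3, 13.5% with A of at least 1, 4.31% with B of 0, 4.18% without Fbn1 in the rule and 8.67% among nuclei with at least 200 UMIs. The median UMIs of the members were then 218, 156, 169.5, 209.5 and 288.5, and 278.5 with the rule applied after thinning to 200 UMIs. The median number of genes was 92 when thinned to 100 UMIs. Genes at least 2-fold higher numbered 1214 with a minimum of 10 UMIs and 186 with 100 UMIs, and 239 were at least 3-fold higher. Genes lower numbered 459 with a minimum of 100 UMIs and 598 at 3-fold. In the Parse library labelled mesPVAT the share was 7.13% with A of at least 3 and 6.62% after thinning. The ratio of Hspa1b turned from lower to 1.02 with A of at least 1. The ratio of Upk1b turned from higher to 0.44 under the study's filters, 0.50 after thinning and 0.48 as a mean over nuclei. The cause was not tested. Of 1294 values of 119 genes, 1142 moved within their counting interval, 148 moved beyond it and 4 reversed. The 20 higher genes were at least 2-fold higher under each of the 11 alternatives run for genes, which is no sign of stability for the 11 of them that had under 30 UMIs in the other nuclei, and the ratio of Ebf2 ran from 5.48 to 9.76. Of the 10 lower genes, 9 stayed at least 2-fold lower with A of at least 1 and 8 with B of 0. Among alternatives chosen after seeing the data, leaving out the largest nucleus gave 588 higher and 1140 lower genes, and a minimum of 30 UMIs in the other nuclei, also used for the Parse libraries, 475 and 1159. No paired analysis was possible because each condition has 1 library. At a median of 182 UMIs per nucleus, a nucleus without a UMI of a gene is not shown to lack it.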

Other observations

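Genes of hyaluronan and its precursors were looked at after their values were seen. Ugdh, which makes UDP-glucuronate for hyaluronan and proteoglycan chains, was at 298 CPM in the members against 43.5 CPM in the others (ratio 6.85, 4.27 to 10.9), beside Gfpt2 and Uap1, which make the other precursor. Tnfaip6, a protein that modifies and binds hyaluronan, was at 514 CPM in the members against 75.4 CPM in the others (ratio 6.82, 4.79 to 9.65). Hyaluronan synthase genes Has1 and Has2 stayed under the minimum, with 7 and 2 UMIs in the members and 21 and 1 in the others. Creb5, a transcription factor of the CREB family, had 113 UMIs in the members and 145 in the others (ratio 7.92, 6.14 to 10.2), and it was on none of the lists.

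Some genes of the lists stayed under the minimum of 30 UMIs, and those given here were picked after their values were seen. Sfrp1, a secreted Wnt antagonist, had 11 UMIs in the members and 3 in the others. Cd34, a surface marker of fat progenitors, had 9 UMIs in the members and 10 in the others, and Fap, a protease of activated fibroblasts, 8 UMIs in the members and 6 in the others. Vcam1, an adhesion receptor, had 5 UMIs in the members and 16 in the others, and Bgn, of the proteoglycan biglycan, 2 UMIs in the members and 9 in the others. Clec11a had 0 UMIs in the members and 5 in the others, and Wnt2 and Dlk1 had 0 UMIs in both.

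Among features without a gene name, LOC108348067 had 20 UMIs in the members and 11 in the others (ratio 18.5, 8.44 to 42.7) and ENSRNOG00000066143 21 UMIs in the members and 20 in the others (ratio 10.7, 5.51 to 20.8). LOC108348067 and ENSRNOG00000066143 reached the minimum only through the members, so their high ratios follow in part from the minimum. The 101 nuclei with A of at least 2 that B kept out had a median of 383 UMIs, above the 182 of the members, with Ebf2 at 223 CPM (119 to 382) and the collagen list at 3398 CPM (2941 to 3906).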
